A study of Mus musculus with 5 samples.

Results

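Vim, Cdh2, Fn1, Zeb1, Zeb2, Snai1, Snai2, Twist1, Sparc and Tnc encode 5 transcription factors of the epithelial-mesenchymal transition and 5 mesenchymal marker or matrix proteins. They were taken by name, with every probe set of the array annotated to that single symbol. This gave 10 of the 18193 genes with such a probe set, and 25 of 34945 probe sets. Of these, 8 genes and 17 probe sets reached a mean MAS5 signal of 47.4, which is the median of the deposited values, and were tested. Cdh2 and Snai1 lay below this limit on every probe set.

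In the epithelial-mesenchymal transition, zinc finger factors (ZEB1, ZEB2, SNAI1 and SNAI2) and the basic helix-loop-helix factor TWIST1 bind E-box sequences and repress epithelial genes such as the one for E-cadherin. Cells then exchange E-cadherin for N-cadherin (Cdh2), build vimentin filaments (Vim) and secrete matrix proteins such as fibronectin (Fn1), SPARC and tenascin-C (Tnc). In squamous carcinomas the programme is often partial, so that keratins and vimentin are present in the same cells.

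All groups used B9 cells, a cutaneous squamous cell carcinoma line of the mouse whose genotype is HRAS-Q61L, so that mutant RAS, which activates RAF kinases, was present with DMSO too. They were kept for 17 h with 1 µM PLX4032 (vemurafenib, an inhibitor of mutant BRAF, 2 arrays), with 1 µM PLX7904 (a paradox-breaking inhibitor of BRAF, 2 arrays) or with 0.2% DMSO as vehicle (1 array). The stated volume of compound stock is 0.02% of the medium, so that the vehicle in the treated cultures may have differed from that of the control. B9 is 1 line, and the arrays are labelled biological replicates without more on the cultures, so that a p-value covers only the spread of these arrays, which may be technical. DMSO had 1 array, whose spread was borrowed from the treated arrays. The median signal of an array was between 44.1 and 51.9, and arrays of a treatment correlated at r = 0.990 (vemurafenib) and 0.989 (PLX7904) over the genes tested.

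The cells carried keratinocyte markers, which is what the label gives. Of 11 such markers 10 passed the limit on signal, with Krt14 at 20571 and Trp63 at 4832 on the DMSO array, and only Krt15 did not. Of 9 fibroblast markers 1 passed, Pdgfra. The other 8, among them Col1a1, Col1a2, Col3a1, Dcn and Lum, read between 2.81 and 50.7 on all arrays. Markers of endothelial cells (1 of 5 past the limit), melanocytes (1 of 6), immune cells (2 of 6) and smooth muscle or pericytes (1 of 5) were mostly below it. In a bulk culture fewer cells of a type and less RNA per cell cannot be told apart.

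With vemurafenib, the RNA of Vim was higher than with DMSO and that of Fn1 lower. All 3 probe sets of Vim also passed in a limma fit of all probe sets, and neither of Fn1 did (adjusted p = 0.0547 and 0.0894). Of the 5 transcription factors none passed, and Snai1 was not tested. Vim was 1.53-fold higher than with DMSO (95% interval 1.38 to 1.69) and Fn1 1.28 times lower (1.11 to 1.48), in 2 arrays against 1. With limma and Benjamini-Hochberg adjustment over the 10852 genes tested, 1 of the 8 genes was called higher and 1 lower (threshold 0.05). Of the genes tested, 5.43% were higher and 5.21% lower, which makes 10.6%. The median log2 difference of the 8 was 0.11, against -0.05 over all genes. With PLX7904 none of the 8 differed from DMSO at that threshold, as was the case for all genes tested (0%). At an unadjusted p under 0.05 there was 1 of the 8 (Vim), and 722 of all genes tested (6.65%). Between the compounds Vim alone passed, against a background of 6.43% higher and 6.87% lower under vemurafenib, together 13.3%. The comparisons with DMSO share 1 DMSO array. Without limma's trend of variance with signal, 0 of the 8 genes passed in any comparison. At an unadjusted p under 0.05 there were then 3 with vemurafenib against DMSO, 0 with PLX7904 and 2 between the compounds. Of the 10852 genes tested, 2319 had such a p in that fit for vemurafenib against DMSO. With the trend, 4 of the 8 had such a p against DMSO, as had 25.9% of all genes tested. Between the compounds it was 4 of the 8, and 27.3% of all genes tested.

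**Figure D1:**
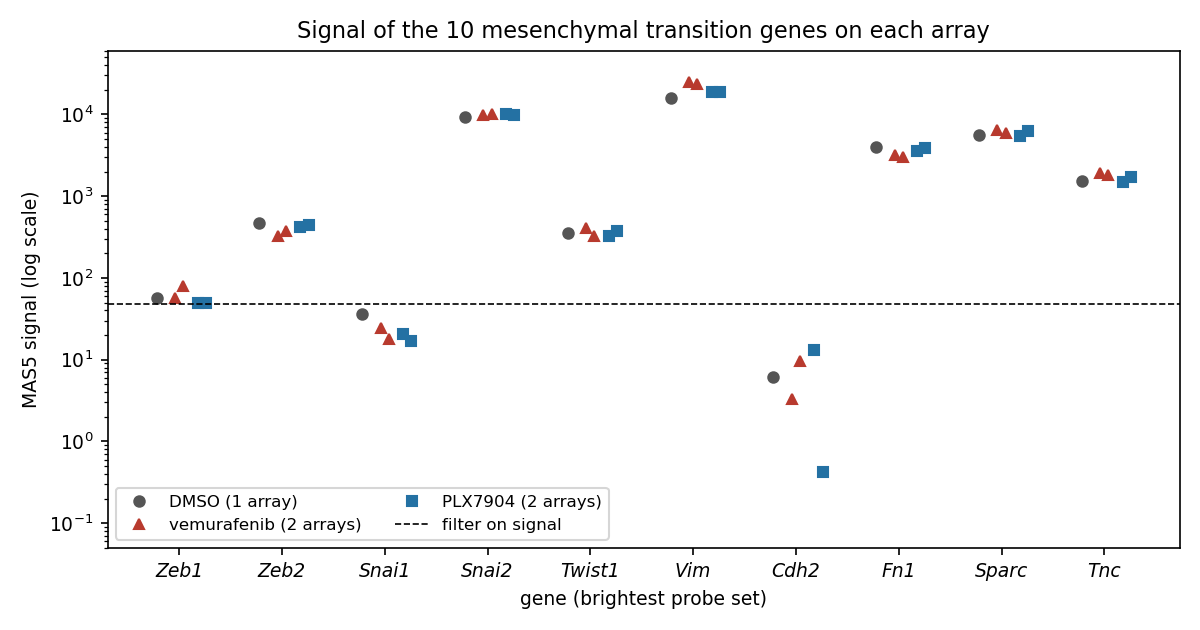
MAS5 signal (log scale) of the brightest probe set of each of the 10 genes on each of the 5 arrays, 1 point per array, with a dashed line at the limit of 47.4. Cdh2 and Snai1 sit below the line on every array, and the vemurafenib arrays of Vim sit above the others.

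Vimentin is the intermediate filament of mesenchymal cells and a common marker of the transition. The Vim probe set with the highest signal, 1450641_at, read 15845 on the DMSO array. It read 24943 and 23447 on the vemurafenib arrays, and 18971 and 18681 with PLX7904. The groups did not overlap, with DMSO lowest and vemurafenib highest. The log2 difference between vemurafenib and DMSO was 0.61 (SE 0.06, limma adjusted p = 3.1e-04). Between PLX7904 and DMSO it was 0.25 (SE 0.06, adjusted p = 0.423), with a 95% interval of the fold from 1.08 to 1.31.

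The other probe sets of Vim gave smaller values in the same direction. 1438118_x_at read 16357 with DMSO, 21152 and 19863 with vemurafenib, and 16095 and 17497 with PLX7904. 1456292_a_at read 11324 with DMSO, 15423 and 15230 with vemurafenib, and 11714 and 11815 with PLX7904. On all 3 probe sets both vemurafenib arrays stood above every other array, which was so for 17% of all probe sets tested, while on 1438118_x_at the PLX7904 arrays lay on either side of DMSO. In a limma fit of the 22278 probe sets past the same limit, each of the 3 was higher with vemurafenib than with DMSO, by 1.53-fold, 1.25-fold and 1.35-fold (adjusted p = 0.00101, 0.0346 and 0.00619). Of all probe sets tested 3.51% were higher in that comparison and 3.14% lower, together 6.64%. The 3 probe sets read the same RNA and are not replicates.

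Vim belongs to the brightest 2% of genes tested, and bright genes read higher on the treated arrays. Their median log2 difference was 0.16 for vemurafenib and 0.14 for PLX7904 against DMSO, and 0.02 between the compounds. After quantile normalization, which removes such a dependence, Vim differed by 0.44 between vemurafenib and DMSO (adjusted p = 6.32e-04), by 0.13 between PLX7904 and DMSO, and by 0.31 between the compounds. After cyclic loess the values were 0.46, 0.15 and 0.32. The call for vemurafenib against DMSO ended without the intensity trend (adjusted p = 0.0945). The summed signal of the 11 keratinocyte markers was also highest with vemurafenib, at 139100 to 140400 against 116000 with DMSO and 123000 to 125700 with PLX7904. That sum was not normalized further. It rests mostly on bright genes, whose differences were unequal. Krt18 differed by log2 0.70 between vemurafenib and DMSO and by 0.49 between the compounds. For Krt14 these values were 0.11 and -0.02, and for Krt6a 0.11 and 0.03. The cause of the higher sum was not tested. Of the 10 markers tested, 4 were higher with vemurafenib than with DMSO (Krt18, Epcam, Itga6 and Krt8) and 0 lower. Krt8, Krt18 and Epcam are genes of epithelial cells more widely and are not particular to keratinocytes. Among all genes tested the shares were 5.43% and 5.21%. Krt14 (log2 0.11), Krt6a (0.11), Trp63 (0.17) and Krt5 (-0.21) were among the markers that did not pass. Between the compounds 5 were higher with vemurafenib and 1 lower, Krt5 (log2 -0.23). The part of these markers in the rise of Vim was not tested.

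The 250 bases before the RefSeq start of Vim are shown because Vim was the gene of the set of which every probe set passed as higher with vemurafenib (GRCm38.p6, chr2:13574061-13574310, plus strand). Capitals mark matches to the motifs searched.
Vim: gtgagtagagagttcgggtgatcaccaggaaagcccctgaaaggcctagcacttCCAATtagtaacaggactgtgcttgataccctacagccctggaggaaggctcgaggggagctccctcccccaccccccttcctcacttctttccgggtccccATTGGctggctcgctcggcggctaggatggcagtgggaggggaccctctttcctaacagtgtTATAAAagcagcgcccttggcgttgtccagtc
The window holds TATAAA 32 bases before the start, a motif that 12.4% of the 32851 RefSeq windows of this length hold on either strand. It holds CCAAT at 2 places, the nearer on the opposite strand as ATTGG, 94 bases before the start (33.8% of windows hold the motif). It holds no CANNTG, the general E-box (66.2% of windows), and so none of the CAGGTG form that ZEB and SNAI proteins bind (17.2%). TGANTCA, the AP-1 element (6.75%), and GGGCGG, the GC box (32.7%), were searched on both strands and have no match in it either. A match of letters is no binding site, and sites farther away were not searched. Windows of 6 of the 10 genes were searched, 10 windows in all. Among those of Zeb2, Snai1, Twist1, Sparc and Tnc, only that of Snai1 holds CAGGTG, at 1 place.

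None of the transcription factors passed in any of the 3 comparisons, and Snai1 was not tested. Zeb1 and Snai1 had low signal, and the probe sets of Snai2 pointed opposite ways. Zeb2, a zinc finger repressor of E-cadherin, read 472 with DMSO on its brightest probe set, 1422748_at. It read 323 and 374 with vemurafenib, and 415 and 449 with PLX7904. The DMSO array was the highest and the vemurafenib arrays the lowest, with no overlap. The log2 difference between vemurafenib and DMSO was -0.44 (SE 0.16, limma adjusted p = 0.111), and between the compounds -0.31 (SE 0.13, adjusted p = 0.152).

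All 4 tested probe sets of Zeb2 read lower on both vemurafenib arrays than on the DMSO array, as did 48.2% of all probe sets tested. Genes in the signal range of Zeb2 had a median log2 difference of -0.11 in that comparison. The next in signal, 1456389_at, read 315 with DMSO, 171 and 223 with vemurafenib, and 242 and 282 with PLX7904 (log2 -0.68 for vemurafenib against DMSO, SE 0.22, adjusted p = 0.102 over probe sets). 1434298_at and 1458941_at gave -0.37 and -0.41, with SE of 0.25 and 0.49. With PLX7904 both arrays lay below DMSO on 3 of the 4, and on 36.9% of all probe sets tested. The mean over all 5 probe sets of the gene gave -0.81 for vemurafenib against DMSO (adjusted p = 0.141). It includes 1454200_at, which was below the limit on signal and read 11.4 and 0.822 with vemurafenib against 31.0 with DMSO.

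Snai2 (Slug) is a zinc finger repressor that is also active in basal keratinocytes and wound edges. Its brightest probe set, 1447643_x_at, read 9414 with DMSO, 9843 and 10180 with vemurafenib, and 10159 and 9734 with PLX7904. These values lay close together, with DMSO lowest and the treatments overlapping. The fold between vemurafenib and DMSO was 1.06 (95% interval 0.953 to 1.19, limma adjusted p = 0.479), and between the compounds 1.01 (0.921 to 1.10). The suffix x marks probes shared with other transcripts, and the annotation gives this probe set no accession. 1418673_at read 3273 with DMSO, 3200 and 2821 with vemurafenib, and 2668 and 2850 with PLX7904. There DMSO was the highest, so that the probe sets of Snai2 pointed opposite ways, and neither passed (log2 -0.12, SE 0.10, for vemurafenib against DMSO on the latter).

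Twist1, a basic helix-loop-helix factor of mesoderm, had 1 probe set, 1418733_at. It read 356 with DMSO, 412 and 322 with vemurafenib, and 323 and 376 with PLX7904. The DMSO value lay inside both treated ranges. The fold was 1.02 for vemurafenib against DMSO (95% interval 0.766 to 1.37, limma adjusted p = 0.936), 0.98 for PLX7904 against DMSO and 1.05 between the compounds (0.824 to 1.32).

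Zeb1 and Snai1 gave little signal. The brightest of 4 probe sets of Zeb1, 1418926_at, read 56.2 with DMSO, 56.2 and 79.7 with vemurafenib, and 49.9 and 48.9 with PLX7904. Its values are near the limit of 47.4, and its interval was wide (fold 1.18, 0.578 to 2.42, for vemurafenib against DMSO). Its other probe sets, 1443005_at, 1446127_at and 1420243_at, were below the limit and read at most 40.1. Snai1 (Snail), a zinc finger repressor of E-cadherin, read on its 1 probe set, 1448742_at, 36.2 with DMSO, 24.3 and 17.9 with vemurafenib, and 20.7 and 17.1 with PLX7904. DMSO was the highest, but the probe set was not tested, and no detection calls say whether such values exceed background.

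**Figure D2:**
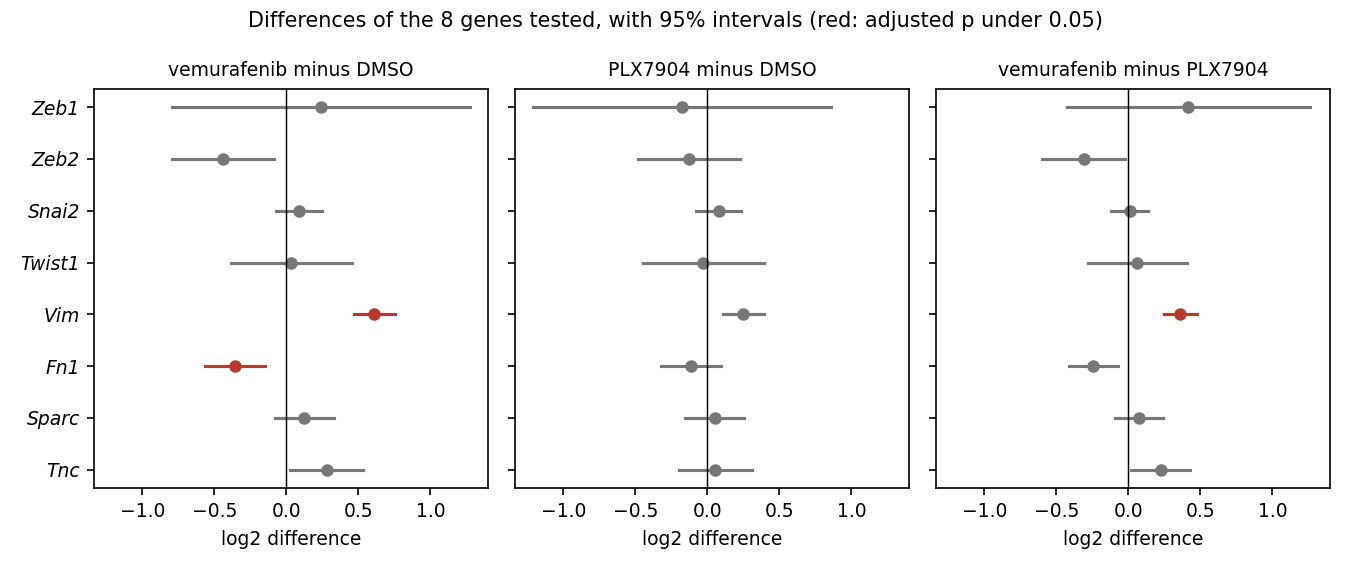
Log2 difference with its 95% interval for the 8 genes tested in each of the 3 comparisons, from the limma fit. Vim (0.61) and Fn1 (-0.36) passed for vemurafenib against DMSO, none for PLX7904 against DMSO, and Vim (0.36) between the compounds.

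Cdh2, the cadherin that replaces E-cadherin in a full transition, had 2 dim probe sets. 1418815_at read 6.15 with DMSO, 3.31 and 9.59 with vemurafenib, and 13.2 and 0.419 with PLX7904. 1449244_at read between 1.55 and 3.89 on the 5 arrays. Both were far below the limit on signal on every array, and no difference was tested. E-cadherin itself (Cdh1) read 5023 with DMSO, between 4131 and 4571 with vemurafenib, and 3934 and 4664 with PLX7904. Its log2 difference between vemurafenib and DMSO was -0.21 (SE 0.11, limma adjusted p = 0.27). Of 4 tested catenins, which link cadherins to actin, 1 was higher with vemurafenib than with DMSO, as were 5.43% of all genes tested. It was Ctnna1 (1.3-fold, 95% interval 1.16 to 1.44). Averaging its probe sets ended that call (log2 0.11), as did leaving out the suffixes x, s and a (0.14). Of 5 tested close relatives of the genes, Cdh1 among them, 0 passed in any comparison (median -1.01 for vemurafenib against DMSO). That median is the value of Tnxb and rests on dim genes. Tnxb, Des and Prph read between 15.1 and 41.6 with vemurafenib, under the limit of 47.4, with SE from 0.53 to 0.76. The median was -0.05 over all genes tested and -0.18 over the dimmest 25%.

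Fibronectin is a matrix protein that integrins bind, and its secretion marks mesenchymal cells. The brightest probe set of Fn1, 1426642_at, read 4012 with DMSO, 3228 and 3029 with vemurafenib, and 3546 and 3865 with PLX7904. DMSO was the highest and vemurafenib the lowest, without overlap. The log2 difference between vemurafenib and DMSO was -0.36 (SE 0.09, limma adjusted p = 0.0361). Between PLX7904 and DMSO it was -0.12 (SE 0.09, adjusted p = 0.884). Between the compounds it was -0.24 (SE 0.08, adjusted p = 0.0624), which did not pass.

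A dimmer probe set of Fn1, 1437218_at, read 295 with DMSO, 170 and 199 with vemurafenib, and 200 and 201 with PLX7904. All treated arrays lay below DMSO, and the treatments were close to each other (log2 -0.67, SE 0.21, and -0.55, SE 0.21, against DMSO). Neither Fn1 probe set passed in the fit of all probe sets (adjusted p = 0.0547 and 0.0894 for vemurafenib against DMSO). The call of Fn1 among genes also ended without vemurafenib replicate 2 (log2 -0.31, adjusted p = 0.139), with median centring (-0.21, adjusted p = 0.383), without the limit on signal (adjusted p = 0.0717) and without the intensity trend (adjusted p = 0.199). Between the compounds Fn1 passed as lower without PLX7904 replicate 1 (-0.31, adjusted p = 0.0368), after quantile normalization (-0.27, adjusted p = 0.0439) and with the limit at the 75th percentile (adjusted p = 0.0458).

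Sparc encodes a collagen-binding protein of remodelling matrix. Its brightest probe set, 1416589_at, read 5645 with DMSO, 6358 and 5957 with vemurafenib, and 5508 and 6213 with PLX7904. The treatments overlapped, and DMSO lay inside the PLX7904 range. The fold was 1.09 for vemurafenib against DMSO (95% interval 0.946 to 1.26, limma adjusted p = 0.438) and 1.05 between the compounds (0.937 to 1.18). On 1448392_at DMSO was the lowest at 1685, with 2089 and 2056 for vemurafenib and 1842 and 2059 for PLX7904. That probe set did not pass either (log2 0.30, SE 0.11, adjusted p = 0.134 over probe sets). The remaining one, 1458204_at, read between 37.9 and 53.8 and was not tested.

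Tnc encodes tenascin-C, a matrix glycoprotein of wounds and tumour stroma. Its brightest probe set, 1416342_at, read 1548 with DMSO, 1925 and 1838 with vemurafenib, and 1498 and 1729 with PLX7904. Both vemurafenib arrays stood above the others. The log2 difference was 0.28 against DMSO (SE 0.11, limma adjusted p = 0.153) and 0.22 between the compounds (SE 0.09, adjusted p = 0.148), and neither passed. After median centring, which raises the vemurafenib arrays, the difference between the compounds was 0.37 (adjusted p = 0.0291). The dim 1456344_at read 33.0 with DMSO and between 53.7 and 59.3 on the 4 treated arrays, with both compounds alike above DMSO and no test passed.

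**Figure D3:**
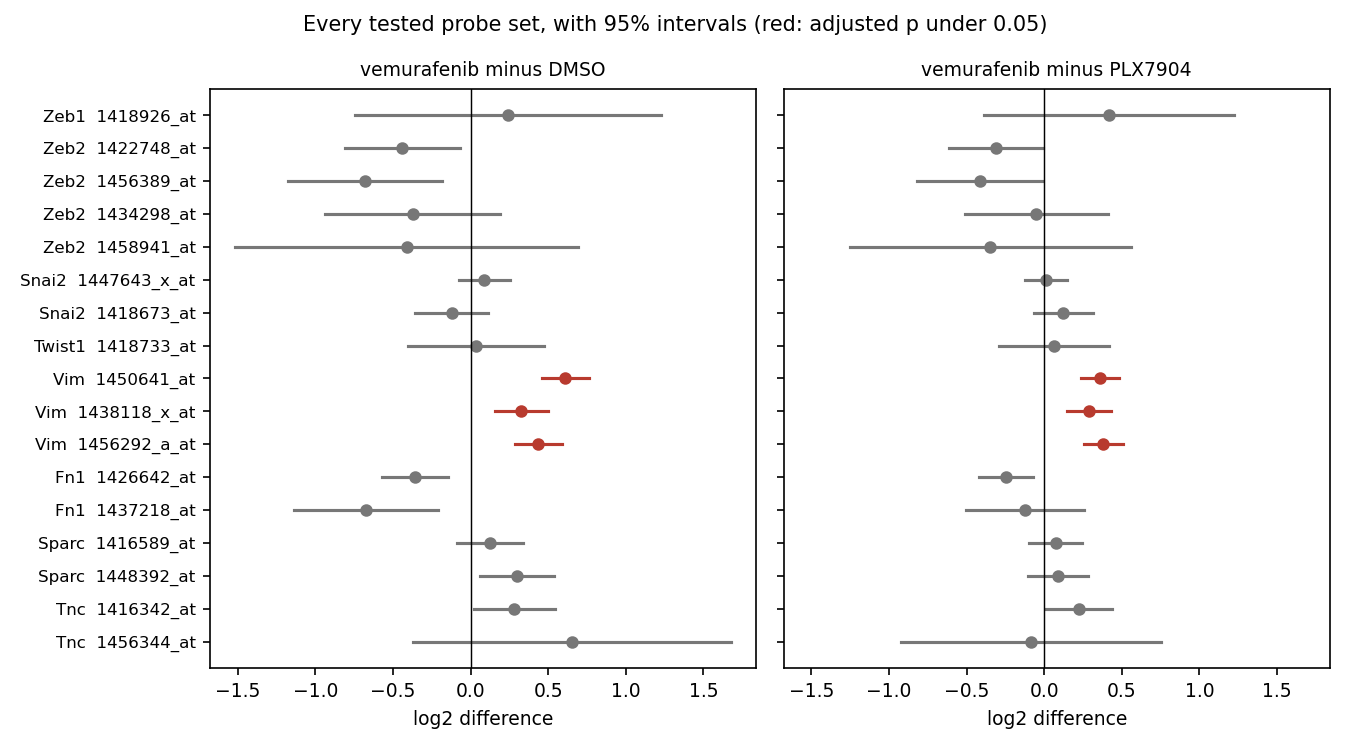
Log2 difference with its 95% interval for the 17 tested probe sets, from a limma fit of all probe sets past the limit, for vemurafenib against DMSO and against PLX7904. The 3 probe sets of Vim passed in both comparisons, while those of Snai2 lay on either side of 0 against DMSO.

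At the matched dose of 1 µM and time of 17 h, the difference between the compounds was tested directly for the 8 genes. Vim was 1.29-fold higher with vemurafenib than with PLX7904 (95% interval 1.18 to 1.39, limma adjusted p = 0.00172). Its 3 probe sets were each higher, by 1.29-fold, 1.22-fold and 1.3-fold (adjusted p = 0.00464, 0.021 and 0.00342 over probe sets, where 4.2% of all probe sets were higher and 4.13% lower, together 8.33%). The call of Vim ended without the intensity trend (adjusted p = 0.113). For the other 7 genes the difference did not pass, which does not show that the compounds act alike. The interval of the fold ran from 0.751 to 0.95 for Fn1, from 0.661 to 0.985 for Zeb2 and from 1.01 to 1.35 for Tnc, before adjustment over genes.

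Other genes of the transition were taken from lists chosen with earlier results of these data known. Among 12 tested transcription factors linked to the transition, vemurafenib raised 3 and lowered 3 relative to DMSO, at a median log2 difference of 0.02 (all genes -0.05). The shares over all genes tested were 5.43% higher and 5.21% lower. Snai3, a relative of Snai1 and Snai2, rose 1.72-fold (95% interval 1.32 to 2.23), from 274 with DMSO to 438 and 511, against 239 and 232 with PLX7904. Hmga2, a chromatin protein of tumour and embryonic cells, rose 1.37-fold (1.23 to 1.52), and Sox4, an HMG-box factor, rose 1.25-fold (1.13 to 1.39).

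The 3 that fell were Id2 (2.39 times lower, 95% interval 2.06 to 2.77), Id3 (1.6 times, 1.39 to 1.84) and Id1 (1.51 times, 1.33 to 1.72). Id proteins do not bind DNA themselves. They hold basic helix-loop-helix factors, among them partners of TWIST1, away from it. Between the compounds Snai3, Hmga2 and Sox4 were again higher and Id1, Id2 and Id3 lower with vemurafenib. The shares over all genes tested were 6.43% higher and 6.87% lower in that comparison. There the call of Hmga2 ended under 5 of 17 alternatives, among them leaving out either vemurafenib replicate. That of Sox4 ended under 8 of 17, among them leaving out either vemurafenib replicate or PLX7904 replicate 1. Against DMSO, the call of Snai3 ended without vemurafenib replicate 2 (log2 0.67, adjusted p = 0.0559) and without the limit on signal (adjusted p = 0.0571). Averaging probe sets ended that of Hmga2 (0.17). The call of Sox4 ended with that average (adjusted p = 0.312), after quantile normalization (0.19), after cyclic loess (0.19) and without the limit on signal (adjusted p = 0.0724).

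Of 37 other mesenchymal and matrix genes listed, 17 were tested. Against DMSO, 2 of them were higher under vemurafenib and 5 lower, at a median of -0.52. Of all genes tested 5.43% were higher and 5.21% lower, with a median of -0.05, and the list was not tested as a group. Many of the 17 were dim, and the median of the dimmest 25% of all genes was -0.18. Acta2, smooth muscle actin, was 4.89 times lower (95% interval 3.65 to 6.55). It read 722 with DMSO, 156 and 135 with vemurafenib, and 513 and 411 with PLX7904. Timp3, an inhibitor of matrix proteases, was 3.69 times lower (2.76 to 4.93), and Thbs1, a matrix glycoprotein that activates TGF-beta, 2.19 times lower (1.88 to 2.55).

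The 2 that rose were Lgals1, the galactose-binding protein galectin-1 (1.36-fold, 1.22 to 1.52), and Pdgfra, a receptor of platelet-derived growth factor. Pdgfra rose 2.89-fold (2.0 to 4.16), from 83.3 with DMSO to 264 and 231, against 138 and 132 with PLX7904. Between the compounds Pdgfra and Lgals1 were higher and 5 genes lower with vemurafenib, where 6.43% and 6.87% of all genes tested were. These were not the same 5 as against DMSO. Ccn2 passed as lower only against DMSO. S100a4 passed as lower only between the compounds, a call that ended under 6 of 17 alternatives. There the call of Pdgfra ended under 5 of 16 alternatives, among them leaving out vemurafenib replicate 1 or PLX7904 replicate 2. That of Lgals1 ended under 2 of 16, among them leaving out vemurafenib replicate 1. Averaging probe sets ended the calls of Acta2 (log2 -0.81) and Pdgfra (0.83) against DMSO. The 5 smooth muscle and pericyte markers, of which 1 was tested, summed to 214 with DMSO, 112 to 119 with vemurafenib and 162 to 185 with PLX7904, and their part in the fall of Acta2 was not tested. Pdgfra also marks fibroblasts, and the summed signal of the 9 fibroblast markers was 195 with DMSO, 420 to 453 with vemurafenib and 217 to 287 with PLX7904. Without Pdgfra the other 8 summed to 112 with DMSO, 189 to 190 with vemurafenib and 79.0 to 155 with PLX7904, each marker at 50.7 or less. Their part in the rise of Vim was not tested.

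**Figure D4:**
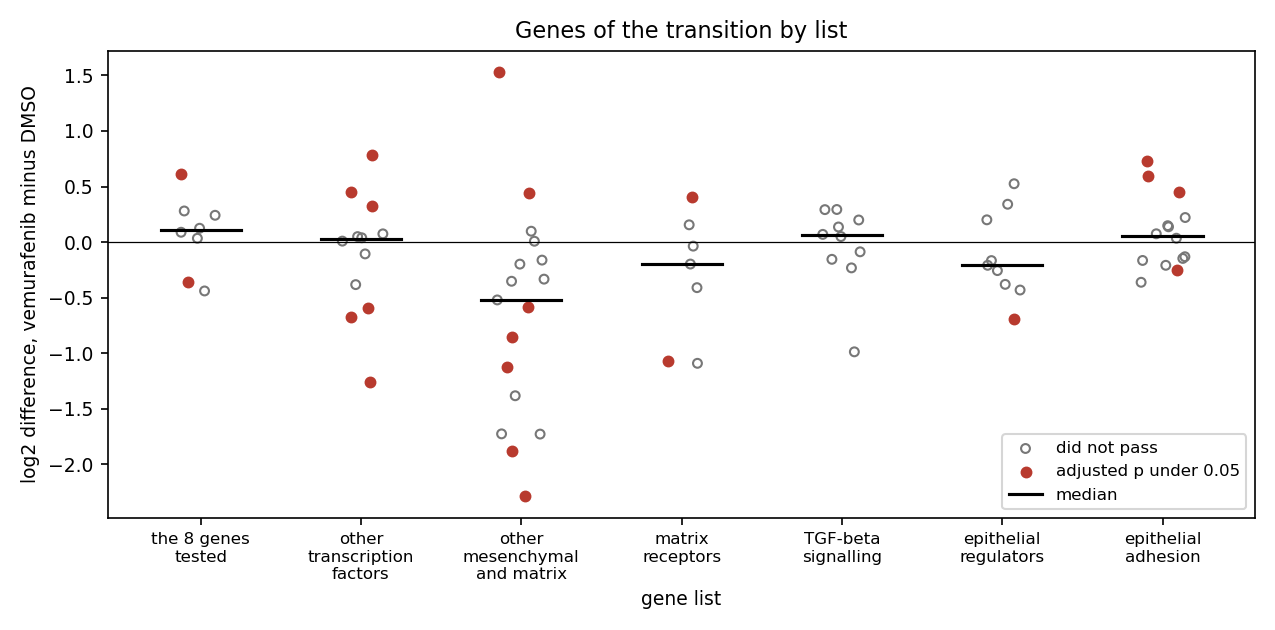
Log2 difference between vemurafenib and DMSO for the 8 genes tested and the tested genes of 6 other lists, 1 point per gene, filled where the limma adjusted p was under 0.05, with a line at the median of each list. The other mesenchymal and matrix genes have a median of -0.52 and the epithelial adhesion genes one of 0.05.

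Of 7 tested cell surface receptors of fibronectin, tenascin-C or SPARC, 1 was higher and 1 lower with vemurafenib (median -0.20). Itgb1, the beta-1 integrin subunit of fibronectin receptors, rose 1.33-fold (95% interval 1.16 to 1.52). Itgb5, a beta subunit that pairs with alpha-v, was 2.1 times lower (1.7 to 2.61). The call of Itgb1 ended when its probe sets were averaged (adjusted p = 0.333) and without vemurafenib replicate 2 (log2 0.34, adjusted p = 0.0711). Between the compounds Itgb1 was again higher and Itgb5 lower with vemurafenib, where 6.43% and 6.87% of all genes tested were. There the call of Itgb1 ended under 2 of 17 alternatives. Of 10 tested genes of TGF-beta signalling, which induces the transition in many epithelia, none passed with limma against DMSO (median 0.06) or between the compounds. With median centring 1 passed for vemurafenib against DMSO and 2 between the compounds. Between the compounds 1 passed without PLX7904 replicate 1, without PLX7904 replicate 2, and under 3 other alternatives.

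Epithelial genes moved in both directions. Of 14 tested adhesion genes vemurafenib raised 3 and lowered 1 (median 0.05 against DMSO). Among all genes tested 5.43% were higher and 5.21% lower in that comparison. Crb3, a polarity protein, rose 1.65-fold (95% interval 1.32 to 2.08), Epcam, an adhesion molecule, 1.51-fold (1.36 to 1.67) and Cldn4, a tight junction claudin, 1.37-fold (1.13 to 1.66). Dsp, the desmosomal protein desmoplakin, was 1.19 times lower (1.07 to 1.33). Of 9 regulators that maintain the epithelial state 0 were higher and 1 lower (median -0.21), the ETS factor Ehf (1.62 times lower, 1.27 to 2.06). That 1 of 9 is near the 10.6% of all genes tested that passed in either direction.

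Between the compounds 4 adhesion genes were higher with vemurafenib, and 1 regulator was higher, Elf3 (1.91-fold, 1.55 to 2.35), and 2 lower, Esrp1 and Ehf. Among all genes tested 6.43% were higher and 6.87% lower in that comparison. There the call of Esrp1, a splicing factor of epithelial cells, ended without vemurafenib replicate 1 (log2 -0.20) or PLX7904 replicate 1 (-0.30) or 2 (-0.39), and under 4 other alternatives. That of Spint2, a protease inhibitor among the 4 adhesion genes, ended without vemurafenib replicate 1 (0.23) or 2 (0.25) or PLX7904 replicate 2 (0.19), and under 2 other alternatives. Against DMSO the calls of Epcam (log2 0.24), Crb3 (0.61), Cldn4 (adjusted p = 0.0836), Dsp (-0.21) and Ehf (adjusted p = 0.168) ended when probe sets were averaged. Those of Cldn4 and Dsp also ended without vemurafenib replicate 1 (0.45 and -0.24) or replicate 2 (0.46 and -0.28). The call of Ehf ended without the limit on signal too (adjusted p = 0.0541), as did those of Cldn4 (0.0854) and Dsp (0.12). Median centring ended that of Dsp (-0.10), and leaving out the suffixes x, s and a that of Crb3 (0.40).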

How the data were processed

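The deposited values are the intensity of each of 45101 probe sets on 5 Affymetrix arrays, made by the authors with MAS5 per the submitters' processing notes. For MAS5 a version was not given in the sources used here. The deposited values have a trimmed mean of 500 on each array, which leaves differences that depend on signal. No detection calls were used here. Of probe sets other than 64 controls, 34945 had 1 gene symbol, 932 several and 9160 none. For a gene, the probe set with the highest mean over groups was taken. The log2 of the signal plus 3.34, the 10th percentile, was fitted with group means on all 5 arrays (limma 3.58.1, R 4.3.3, eBayes with trend, 2 residual and 8.27 prior degrees of freedom). A second fit took all probe sets past the limit. Fold changes on the log2(signal + 3.34) scale understate changes of dim genes. Tests were two-sided. The genes and lists were chosen with earlier results of these data known. The rule for naming took the 10 genes with their probe sets, and of each list up to 3 passing genes at either end. List genes without a single-symbol probe set were not analysed here. Replicate numbers did not pair the treated arrays (correlation of deviations -0.00711). Figures used Python 3.11.15 and matplotlib 3.10.9. Promoter windows came from RefSeq (GRCm38.p6).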

Additional observations from a re-analysis of the deposited data

How the results depend on the processing

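The alternatives were another pseudocount, limit on signal, normalization, variance model or probe set rule, a replicate block, only the 4 treated arrays, and leaving out each treated array. For vemurafenib against DMSO, 2 of the genes passed, and 1 did without the limit and 1 with median centring. Without the intensity trend 0 passed (3 at an unadjusted p under 0.05, as had 2319 of the 10852 genes tested). Leaving out an array gave 1 to 2. Between the compounds 1 passed, and 2 did with the limit at the 75th percentile, with quantile normalization and with median centring. Without the trend 0 passed (2 at an unadjusted p under 0.05, which 27.3% of all genes tested had in the fit with the trend). Leaving out an array gave 1 to 2. For PLX7904 the count stayed at 0 under all alternatives run. At an unadjusted p under 0.05 in the limma fit there was 1 of the 8, Vim, and 6.65% of all genes tested. Median centring moved the median of all genes tested from -0.05 to 0.10 for vemurafenib against DMSO, and 77.9% of calls were then higher in place of 51%. Between the compounds it moved from -0.04 to 0.11, with 80.1% in place of 48.4%. The replicate block gave the same calls among the 8 genes (2, 0 and 1 passed). Over all genes it gave 1211 calls in place of 1154, 4 in place of 0, and 1583 in place of 1443.

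Of 386 values of members under an alternative, 22 changed sign, and none of these passed. With quantile normalization Snai2 was -0.0196 (vemurafenib against DMSO) and -0.0444 (between the compounds), and Twist1 0.0331 (PLX7904 against DMSO). With cyclic loess these were -0.0121, -0.0219 and 0.0261. With the mean of all probe sets Snai2 was -0.0175 (vemurafenib) and -0.0839 (PLX7904) against DMSO, and Zeb1 -0.91 (vemurafenib) against DMSO and -0.56 between the compounds. Leaving out the suffixes x, s and a, Snai2 was -0.12 (vemurafenib) and -0.25 (PLX7904). With the replicate block Twist1 was 0.00481 for PLX7904 against DMSO. Leaving out 1 treated array, values between the compounds ranged from -0.0213 to 0.0402 for Snai2, -0.0138 to 0.16 for Sparc and -0.112 to 0.238 for Twist1. Against DMSO, Twist1 ranged from -0.141 to 0.209 (vemurafenib) and -0.137 to 0.0787 (PLX7904). With PLX7904 Sparc ranged from -0.0354 to 0.138 and Tnc from -0.0481 to 0.159. Of 392 list counts 43 moved by more than 1.5 times, among them the other mesenchymal genes with vemurafenib (7 passed, 2 without the trend) and the TGF-beta genes between the compounds (0 passed, up to 2). Without the trend the calls against DMSO of all list genes named ended, except Acta2 and Pdgfra. The cause was not tested. With 2 arrays or 1 per group, and no detection calls, values of Cdh2, Snai1 and most Zeb1 probe sets carry no statement on expression.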
